A study of Mus musculus with 6 samples.

Results

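The genes described here are 33 mouse transcription factor genes of 5 families, given as a list of names, of 21646 protein-coding genes on chromosomes 1 to 19 and X. They are 9 Pax genes (Pax1 to Pax9), 5 sine oculis homeobox genes (Six2 to Six6), 6 Dlx genes (Dlx1 to Dlx6), 6 Irx genes (Irx1 to Irx6) and 7 Lhx genes (Lhx1 to Lhx6 and Lhx8). Whole-genome bisulfite sequencing gave DNA methylation at these genes in advanced pluripotent stem cells (ASCs), embryonic stem cells (ESCs) and epiblast stem cells (EpiSCs), with 2 libraries per group. ASCs were obtained by the study from activin- and FGF-cultured cells of blastocyst origin and kept in ABCL, a serum-free medium with activin A, BMP4, the Wnt agonist CHIR99021 and LIF. ESCs were kept in 2i/LIF, which holds cells in the naive state, and EpiSCs stand for the primed state of the postimplantation epiblast. All 6 libraries were labelled wild type and strain 129S2/SvPasCrl, although the study's methods describe embryos from crosses of mixed strain background, so a uniform genetic background cannot be assumed. The study described the cells as female, and the labels call the replicates biological without saying whether they came from separate lines or cultures. The p-values below therefore concern these libraries only, and the spread they use is in part pooled over many regions. The tables hold no expression values, so the cell types could not be checked against marker genes.

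All 5 families encode DNA-binding proteins that pattern the embryo. Pax proteins bind through a paired domain and direct the formation of the eye, ear, kidney, muscle, pancreas, thyroid and B cells. The proteins of Six2 to Six6, relatives of fly sine oculis, are homeodomain factors of the eye, kidney and muscle, and some of them act with Eya partners. Dlx proteins, relatives of fly Distal-less, act in the limbs, the facial skeleton and inhibitory neurons of the forebrain, and their genes lie as neighbouring pairs. Irx proteins are TALE-class homeodomain factors of the heart and neural tube, with genes in a pair of clusters. Lhx proteins carry LIM domains beside the homeodomain and specify neurons, the pituitary and the limb. Mammalian DNA is methylated mainly at CpG, and most CpG sites outside CpG-dense regions are methylated in differentiated cells. Genes of this kind are known in pluripotent cells for wide CpG-dense stretches that carry little methylation and are marked by Polycomb proteins.

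The main transcription starts of these genes were richer in CpG than those of most genes. The promoter window, which spans 1000 bp upstream and 100 bp downstream, held a median of 47 CpG sites (lowest 8 at Pax4, highest 87 at Six2 and Lhx4), against 28 over all promoters, and 22 of 33 windows (66.7%) held 40 or more, against 35.0% of all. To show the range, the 250 bases before the start of Dlx2, a factor of forebrain interneurons, and of Pax4, a factor of pancreatic beta cells, are given below with each CpG in capitals. The Dlx2 stretch, chr2:71546755-71547004 on the minus strand of GRCm38, holds 24 CpG sites. Pax4, chr6:28449354-28449603 on the minus strand, holds 2.
Dlx2 before the start: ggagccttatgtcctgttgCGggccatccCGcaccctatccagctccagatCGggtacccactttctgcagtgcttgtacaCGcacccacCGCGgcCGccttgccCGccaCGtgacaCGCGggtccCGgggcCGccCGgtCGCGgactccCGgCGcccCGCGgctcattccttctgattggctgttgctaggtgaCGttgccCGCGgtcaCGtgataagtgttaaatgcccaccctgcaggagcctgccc
Pax4 before the start: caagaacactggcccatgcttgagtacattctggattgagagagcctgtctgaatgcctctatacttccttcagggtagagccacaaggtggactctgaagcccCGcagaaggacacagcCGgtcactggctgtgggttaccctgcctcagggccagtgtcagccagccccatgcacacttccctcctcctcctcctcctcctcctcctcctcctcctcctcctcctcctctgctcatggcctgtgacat
At the Dlx2 stretch methylation lay between 0% and 2.90% in all 6 libraries, where the 43 observations of ASC replicate 1 and the 86 of EpiSC replicate 2 allow up to 6.98% and 3.49%. The Pax4 stretch had too few reads for a level, from 2 to 13 per library.

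Stretches from inside 3 of the 2 kb tiles with the largest differences show where the groups parted, again with each CpG in capitals. The Pax3 stretch, chr1:78199031-78199330 on the minus strand, lies upstream of Pax3, a neural crest and muscle progenitor factor. The Pax7 stretch, chr4:139818001-139818300 on the minus strand, lies in an intron of Pax7, the factor of muscle satellite cells. The Pax5 stretch, chr4:44555344-44555643 on the minus strand, lies in an intron of Pax5, the B-cell commitment factor.
Pax3 upstream: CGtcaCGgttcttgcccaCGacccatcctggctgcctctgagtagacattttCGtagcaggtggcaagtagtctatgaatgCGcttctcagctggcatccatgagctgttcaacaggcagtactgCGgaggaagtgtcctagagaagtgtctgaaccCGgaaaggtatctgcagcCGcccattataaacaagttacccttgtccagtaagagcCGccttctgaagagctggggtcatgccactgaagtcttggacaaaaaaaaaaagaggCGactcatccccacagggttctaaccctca
Pax7 intron: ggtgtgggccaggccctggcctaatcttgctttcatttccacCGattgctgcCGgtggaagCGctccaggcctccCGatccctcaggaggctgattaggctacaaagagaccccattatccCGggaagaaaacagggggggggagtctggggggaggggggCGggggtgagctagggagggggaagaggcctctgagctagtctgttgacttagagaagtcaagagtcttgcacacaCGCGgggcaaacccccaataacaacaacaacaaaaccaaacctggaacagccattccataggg
Pax5 intron: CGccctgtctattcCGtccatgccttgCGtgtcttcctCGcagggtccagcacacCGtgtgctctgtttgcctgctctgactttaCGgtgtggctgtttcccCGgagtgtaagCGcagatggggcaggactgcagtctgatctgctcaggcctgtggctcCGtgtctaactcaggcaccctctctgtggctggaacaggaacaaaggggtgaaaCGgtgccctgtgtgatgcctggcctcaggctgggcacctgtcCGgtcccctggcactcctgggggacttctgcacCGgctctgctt
The Pax3 stretch was 67.3% and 52.6% methylated in ASCs, 16.2% and 24.5% in ESCs, with 5.48% and 2% in EpiSCs. The Pax7 stretch was 56.2% and 75% methylated in ASCs, 13.9% and 5.26% in ESCs, with 0% in both EpiSC libraries, whose 44 and 35 observations allow shares of up to 6.82% and 8.57%. The Pax5 stretch was instead highest in EpiSCs, with 3.03% and 0% (up to 7.89%) in ASCs, 0.990% and 1.45% in ESCs, with 92.3% and 93.9% in EpiSCs, so ASCs and ESCs overlapped. These stretches were taken from tiles chosen for their difference and are shown as a description.

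The libraries held between 63803799 and 74925271 CpG reads, a mean coverage of 2.96 to 3.46 reads per CpG. Reads were therefore summed over regions. The level of a region is the share of methylated CpG reads, called observations, and a region was tested only with 40 or more observations in every library. A call required an adjusted p under 0.05 in a limma-moderated model and at least 20 percentage points between group means. Coverage was not even between groups at these genes: their promoters had 3.52 and 3.28 reads per CpG in ASCs, against 4.39 and 4.03 in ESCs and 4.87 and 4.68 in EpiSCs. All promoters with 40 or more CpG sites had the same order, from 3.14 in an ASC library to 4.67 in an EpiSC library. The part of coverage in the results was not tested, apart from a repeat with the libraries thinned to the same total number of reads, which leaves the coverage at these genes unequal.

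The promoters of the 5 families were low in methylation in all 3 cell types, and in EpiSCs they lacked the higher level seen at promoters in general. Of 33 promoters, 31 passed the minimum, with 54 to 522 observations per library. Their median level was 4.69% and 4.65% in ASCs, 2.77% and 3.05% in ESCs, with 3.16% and 3.52% in EpiSCs. All 14414 tested promoters had medians of 4.50% and 4.69%, 1.46% and 1.48%, and 14.1% and 13.4%. Among the 7478 with 40 or more CpG sites the medians were 1.32% in both ASC libraries, 0.752% and 0.730% in ESCs, with 5.73% and 5.36% in EpiSCs. The 22 tested promoters of the 5 families with as many CpG sites had medians of 4.37% and 3.02% in ASCs, 1.23% and 2.84% in ESCs, with 1.41% and 1.79% in EpiSCs. Their medians were thus higher in ASCs and ESCs and lower in EpiSCs than those of all such promoters, a difference described here and not tested. CpG content was not matched beyond the minimum of 40 sites, and levels vary with it. The 1341 promoters with 80 or more sites had medians of 0.559% and 0.552% in ASCs, 0.570% and 0.513% in ESCs, with 1.55% and 1.39% in EpiSCs. A level of 0% was given by 9 of the 186 tested promoter values, and at their depth a count of 0 allows a share between 0.833% and 3.9%.

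**Figure D1:**
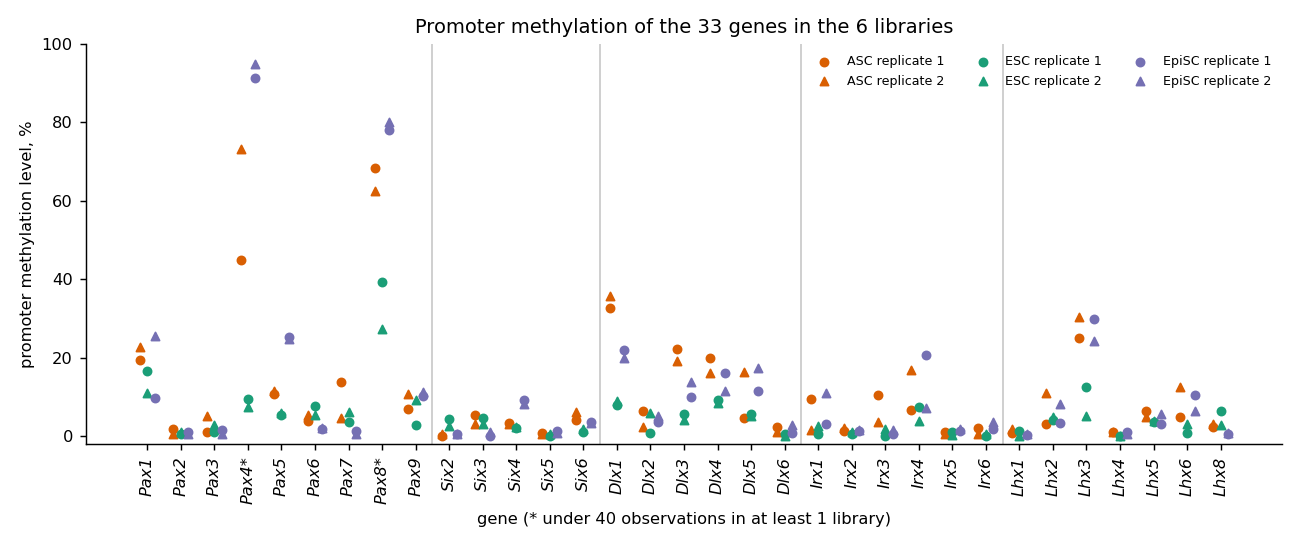
Promoter methylation in percent (vertical axis) of each of the 33 genes (horizontal axis, by family, with an asterisk for the 2 under the minimum), with a point for each library of ASCs, ESCs and EpiSCs. Most points lie under 20%, and Pax4, Pax8, Dlx1 and Lhx3 stand above the rest in at least 1 group.

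No promoter of the 31 was called in ASCs against EpiSCs, where 24.4% of all promoters were lower and 0.153% were higher in ASCs. At an unadjusted p under 0.05 there were 6 of the 31. Of all promoters, 51.5% were lower and 0.853% were higher in ASCs even after adjustment, with no minimum difference. Among the 31 the largest difference of ASCs minus EpiSCs was -13.9 points, at Pax5, short of the 20 points needed. Limma on M values and Fisher's exact test were held to the same minimum and so could call none. None was called in EpiSCs against ESCs, where 37% of all promoters were higher in EpiSCs and 0.00694% were lower. The unadjusted count was 15 of the 31. Of all promoters, 76.7% were higher and 0.347% were lower in EpiSCs even after adjustment, with no minimum difference. Among the 31 the largest difference was 19.3 points, again at Pax5, so the same other tests could call none here either. In ASCs against ESCs, where 17.2% of all promoters were higher in ASCs, the single call was Dlx1, a partner of Dlx2 in forebrain interneurons. The median difference over the 31 was 1.87 points for ASCs over ESCs, 0.41 points for ASCs over EpiSCs and 1.31 points for EpiSCs over ESCs. Over all promoters the median of ASCs minus EpiSCs was -6.74 points. Calls are rarer at CpG-dense promoters, so the 22 of the 31 with 40 or more CpG sites are set against all 7478 such promoters. None of the 22 was called in any comparison. In ASCs against ESCs 1.11% of the 7478 were higher and 0% were lower, so a count of 0 there is near the background. Between ASCs and EpiSCs 0.0669% were higher in ASCs and 9.45% were lower, and in EpiSCs against ESCs 13.3% were higher and 0% were lower.

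Dlx1 was 32.6% and 35.8% methylated in ASCs, 7.97% and 8.99% in ESCs, with 22.1% and 19.8% in EpiSCs. The groups did not overlap, with ASCs highest and ESCs lowest. ASCs exceeded ESCs by 25.7 points (adjusted p = 0.000281), but with 500 bp taken to either side of the start the difference was 8.725 points and the call was lost. Pax5 went the other way between ASCs and EpiSCs, with 10.6% and 11.6% in ASCs, 5.48% and 5.81% in ESCs, with 25.3% and 24.7% in EpiSCs, the highest EpiSC group mean among the tested Pax promoters. The difference of ASCs minus EpiSCs was -13.9 points (adjusted p = 0.00202), under the 20 points needed for a call. Lhx3, a pituitary and motor neuron factor, had the highest Lhx mean in EpiSCs, at 29.9% and 24.4%, but its ASC libraries were level with these at 25% and 30.3%, and its ESC libraries were at 12.5% and 5.05%.

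The other promoters at the ends of each family's range in EpiSCs, taken by the mean of both libraries, were mostly near 0. Pax2, a kidney and optic stalk factor, was the lowest Pax promoter in EpiSCs, at 1.05% and 0.549%. Its other 4 libraries lay between 0.526% and 1.90%. Among Six2 to Six6 the highest was Six4, a muscle factor, at 9.09% and 8.28% in EpiSCs, 3.23% and 3.03% in ASCs, and 2.13% and 2.27% in ESCs. Six2, which keeps kidney progenitors undifferentiated, was lowest in EpiSCs at 0.526% and 0.483%, with 0% and 0.602% in ASCs and more methylation in ESCs, at 4.43% and 2.68%. Among the Dlx promoters Dlx1 was highest, and Dlx6, a limb and jaw factor, was lowest at 0.787% and 2.88% in EpiSCs, with the other libraries between 0% and 2.27%. Irx4, a factor of the heart ventricle, had the highest Irx level, but its replicates spread from 7.12% to 20.7% in EpiSCs and from 6.75% to 16.9% in ASCs. Its ESC libraries were at 7.33% and 3.76%, so the groups overlapped. Irx3 was lowest at 0.552% and 1.65% in EpiSCs, against 0% and 1.82% in ESCs and 10.5% and 3.57% in ASCs. Lhx1, a factor of the head organizer and kidney, was lowest of the Lhx promoters at 0.235% and 0.641% in EpiSCs and no higher than 1.79% in any library.

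The promoters of Pax4 and Pax8 were under the minimum and were not tested. They hold 8 and 13 CpG sites and had the highest mean levels of the 33 in ASCs and EpiSCs. In ESCs Pax8 was highest, and Pax4 was below Pax1, Lhx3, Dlx4 and Dlx1. Pax4 had 13 of 29 observations methylated in ASC replicate 1 (44.8%, Wilson interval 28.4 to 62.5) and 22 of 30 in ASC replicate 2 (73.3%, 55.6 to 85.8). In ESCs there were 3 of 32 (9.38%, 3.24 to 24.2) and 3 of 41 (7.32%, 2.52 to 19.4). In EpiSCs there were 32 of 35 (91.4%, 77.6 to 97.0) and 38 of 40 (95%, 83.5 to 98.6). Pax8, a thyroid and kidney factor, was at 68.4% (57.5 to 77.6) and 62.5% (49.4 to 74.0) in ASCs. Its ESC libraries were at 39.2% (27.0 to 52.9) and 27.3% (17.3 to 40.2). Its EpiSC libraries were at 78.2% (65.6 to 87.1) and 80% (64.1 to 89.96). The levels of both genes had the order of the genome at large, ESCs lowest and EpiSCs highest. The intervals keep it only in part: that of Pax4 in ASC replicate 2 overlaps both EpiSC intervals, the ASC and EpiSC intervals of Pax8 overlap, and that of Pax8 in ASC replicate 2 overlaps that of ESC replicate 1.

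Since most differences at these promoters were small, calls were also counted with no minimum difference, a rule given weight with earlier values known. In ASCs against ESCs 6 promoters were higher (35.9% of all) and 1, Six2, was lower (0.298% of all). In ASCs against EpiSCs 4 promoters were higher, Pax7, Six3, Dlx1 and Irx3, where the share over all promoters is 0.853%, and only Pax5 of the 31 was lower, where the share is 51.5%. In EpiSCs against ESCs 8 were higher (76.7% of all) and 5 were lower (0.347% of all). At like CpG content the shares were closer in ASCs against ESCs: 3 of the 22 CpG-dense promoters were higher (13.6%, against 15.9% of all 7478) and 1 was lower, against 0.575%. Of the 22, 3 were higher in ASCs than in EpiSCs, against 0.816%, and 1 was lower, against 42.9%. In EpiSCs against ESCs 5 were higher, against 64.1%, and 5 were lower, against 0.575%. The 5 lower in EpiSCs were Pax6, Pax7, Six2, Six3 and Lhx8. Pax6, the master factor of eye formation, was at 7.63% and 5.30% in ESCs, 3.92% and 5.26% in ASCs, and 1.78% and 2.08% in EpiSCs (EpiSC minus ESC -4.54 points, adjusted p = 0.00748). Six3, a forebrain and eye factor, was at 4.58% and 3.05% in ESCs, 5.44% and 3.03% in ASCs, and 0% and 1.10% in EpiSCs (-3.26 points, adjusted p = 0.0412). Pax7 was at 3.53% and 6.25% in ESCs, 13.8% and 4.65% in ASCs, and 1.24% and 0.405% in EpiSCs. Lhx8, a factor of cholinergic neurons, was at 6.32% and 2.76% in ESCs, 2.38% and 3.01% in ASCs, and 0.541% and 0.901% in EpiSCs. In each of these 5 genes both EpiSC libraries lay under both ESC libraries, by a few percentage points, as selection by this comparison makes likely. The comparisons of ASCs with EpiSCs and of EpiSCs with ESCs share the EpiSC libraries and are not independent.

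Along the gene bodies, from 100 bp after the start to the end of the main transcript, the 33 genes ranged from almost unmethylated to largely methylated. All 33 bodies were tested. Their median level was 18.8% and 17.9% in ASCs, 7.40% and 7.53% in ESCs, with 17.7% and 18.6% in EpiSCs, whereas all 19462 tested bodies had medians of 56.5% and 57.0%, 16.0% and 16.4%, and 82.2% and 81.8%. The 33 were not matched to other bodies in length or CpG density, and the part of these in the differences was not tested. In EpiSCs against ESCs 12 of 33 were called higher, where 96.1% of all bodies were. In ASCs against ESCs 9 of 33 were called higher, against 87.3% of all. In ASCs against EpiSCs 1 of 33 was called lower, against 59.2% of all, and none was called higher, against 0.0206%. At an unadjusted p under 0.05 there were 20 of 33. Of all bodies, 94.5% were lower and 0.406% were higher in ASCs even after adjustment, with no minimum difference. Fisher's exact test and limma on M values gave the same counts of 12, 9, 1 and 0. They were held to the same minimum of 20 points on the same differences, so this agreement was largely set by that minimum.

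Of the 12 bodies called higher in EpiSCs than in ESCs, 6 were of the 9 Pax genes. Pax4 was at 68.4% and 68.3% in ASCs, 13.5% and 12.3% in ESCs, with 91.3% and 87.6% in EpiSCs. It differed by 76.6 points between EpiSCs and ESCs (adjusted p = 1.93e-11). It was the single call between ASCs and EpiSCs, at -21.1 points (adjusted p = 1.81e-05), and without EpiSC replicate 1 the difference was -19.3 points and the call was lost. Pax5 was at 59.0% and 57.7% in ASCs, 16.9% and 17.5% in ESCs, with 74.7% and 74.6% in EpiSCs, a gain of 57.4 points over ESCs (adjusted p = 1.49e-17). Pax8 rose by 51.1 points from ESCs to EpiSCs, from 17.2% and 17.8% to 70.3% and 67.0%, with ASCs at 56.0% and 57.8%. Pax2 was at 49.1% and 50.01% in ASCs, 14.5% and 13.8% in ESCs, with 62.8% and 61.0% in EpiSCs. In these 4 genes the 3 groups did not overlap, and ASCs lay between ESCs and EpiSCs.

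Pax3 and Pax7 had the same order, with ASCs closer to EpiSCs. Pax3 was at 57.6% and 59.8% in ASCs, 17.9% and 18.8% in ESCs, with 62.8% and 62.2% in EpiSCs (ASC minus EpiSC -3.75 points, adjusted p = 0.00616). Pax7 was at 48.9% and 49.2% in ASCs, 12.8% and 13.5% in ESCs, with 49.8% and 49.7% in EpiSCs, where the difference of ASCs minus EpiSCs was -0.71 points (adjusted p = 0.369). Outside the Pax family Irx6 was at 35.0% and 40.6% in ASCs, 11.7% and 11.9% in ESCs, with 47.8% and 61.2% in EpiSCs, so its EpiSC replicates differed by more than 10 points. Lhx4, a pituitary factor, was at 39.3% and 42.2%, 13.6% and 14.8%, and 48.2% and 44.4% in the same order. Lhx8 was at 42.2% and 47.2% in ASCs and 41.6% and 45.5% in EpiSCs, with ESCs at 13.9% and 12.3%. Six4 was at 24.7% and 17.9% in ASCs, 5.65% and 6.92% in ESCs, with 38.9% and 34.5% in EpiSCs. The remaining calls in EpiSCs over ESCs were Lhx6 (28.6 points) and Irx4 (20.2 points). The call of Irx4 was lost without ESC replicate 1 (19.4 points) or without EpiSC replicate 1 (18.9 points).

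With no minimum difference, 26 bodies were higher (97.2% of all) and 1 was lower (0.0411% of all) in ASCs than in ESCs, and 22 were higher in EpiSCs than in ESCs (99.2% of all). In ASCs 8 bodies were higher than in EpiSCs, where the share over all bodies is 0.406%, and 12 were lower, where the share is 94.5%. The 8 included Pax6, at 18.8% and 17.7% in ASCs, 7.78% and 9.88% in ESCs, with 9.45% and 8.69% in EpiSCs, a difference of 9.22 points (adjusted p = 6.35e-07). Pax6 in EpiSCs was thus within the range of ESCs. Lhx2, a factor of the eye field and cortex, was at 30.04% and 30.5% in ASCs, 10.9% and 11.7% in ESCs, with 22.4% and 20.2% in EpiSCs (9.01 points, adjusted p = 1.34e-05). The others were Dlx6 (8.83 points), Dlx5 (7.79), Six6 (7.68), Six3 (3.87), Dlx1 (2.72) and Irx1 (2.29). The bodies of Dlx5, Six2, Six3 and Dlx2 were lower in EpiSCs than in ESCs by this rule, where 0.0873% of all bodies were, with differences between -6.14 points at Dlx5 and -1.46 points at Dlx2. Over the whole annotated span of the gene outside the promoter window, which reaches beyond the main transcript, the difference at Six3 turned to 0.23 points.

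**Figure D2:**
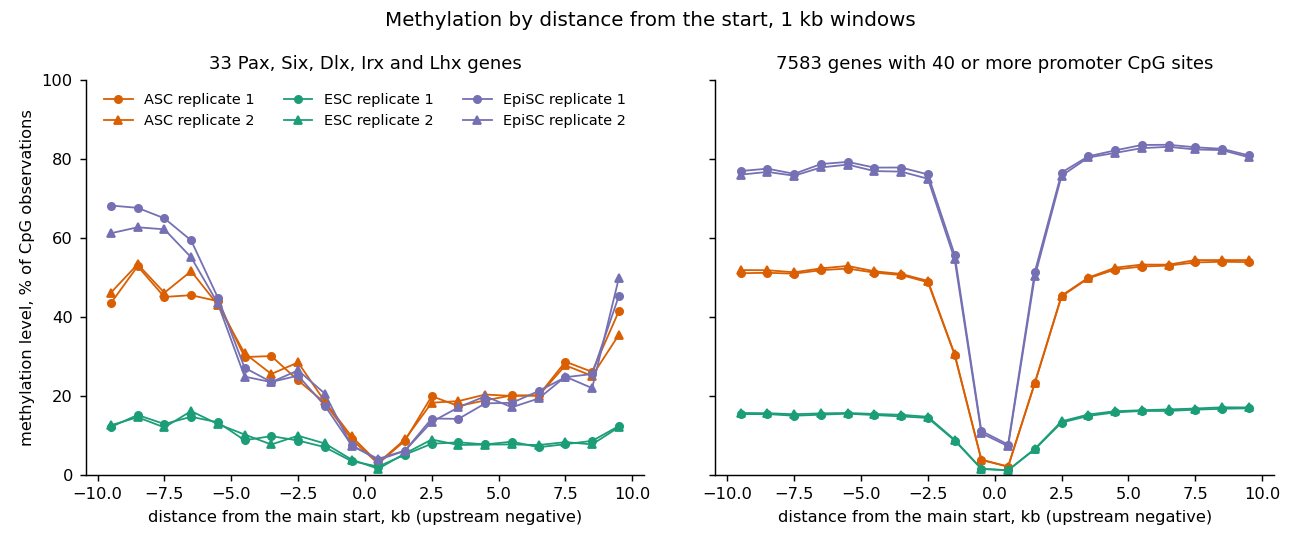
Methylation level in percent (vertical axis) in 1 kb windows by distance from the main start in kb (horizontal axis), summed over the 33 genes and over all genes with 40 or more promoter CpG sites, with a line for each of the 6 libraries. Around the 33 genes the EpiSC lines run near or under the ASC lines for several kb on both sides, while at CpG-dense genes in general they lie above them in all 20 windows.

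Levels by distance from the start showed how far the low methylation reached. In the first 1 kb after the start the 33 genes were at 2.80% and 3.04% in ASCs, 2.07% and 1.53% in ESCs, with 3.74% and 4.03% in EpiSCs. At 2 to 3 kb after the start they were at 19.9% and 18.2% in ASCs and 14.2% and 13.4% in EpiSCs. Genes with 40 or more promoter CpG sites were at 45.2% and 45.4% in ASCs and 76.5% and 75.7% in EpiSCs at that distance. At 2 to 3 kb before the start the 33 genes were at 23.9% and 28.4% in ASCs and 25.1% and 26.4% in EpiSCs, and the groups overlapped. Farther out EpiSCs exceeded ASCs, as at 9 to 10 kb before the start, with 68.2% and 61.1% against 43.5% and 46.1%. The ASC mean was above the EpiSC mean in 11 of 20 windows (9 to 12 with a library left out, and 8 without the 9 Pax genes).

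The low stretch around each start was then measured as the run of 1 kb windows under 20% methylated. Over the 33 genes its median width was 4 kb in both ASC libraries, 12 kb in both ESC libraries, and 6 and 7 kb in the EpiSC libraries. Over all protein-coding genes it was 2 kb in ASCs, 6 kb in ESCs and 1 kb in EpiSCs, and over CpG-dense genes 3 kb in ASCs, 7 kb in ESCs and 2 kb in EpiSCs. The stretch was wider in both EpiSC libraries than in both ASC libraries at 14 of 33 genes (42.4%) and narrower at 4 (12.1%). The same shares were 0.841% and 34.1% over all protein-coding genes, and 1.12% and 50.8% over CpG-dense genes. These are counts of genes whose libraries do not overlap, with no test. The limit of 20% matters: at 10% the count was 9 wider and 4 narrower, and at 30% it was 15 and 2. Over all protein-coding genes 0.799% were wider and 30.6% narrower at 10%, and 0.869% and 38.7% at 30%. Over CpG-dense genes the shares were 1.24% and 49% at 10%, and 1.21% and 55.9% at 30%. At 10% the median width over the 33 genes was 3 kb in every ASC and EpiSC library and 4 kb in both ESC libraries, so the medians of ASCs and EpiSCs then did not differ. The limit of 20% also lies near the median ESC tile of the genome, at 19.4% and 19.7%.

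**Figure D3:**
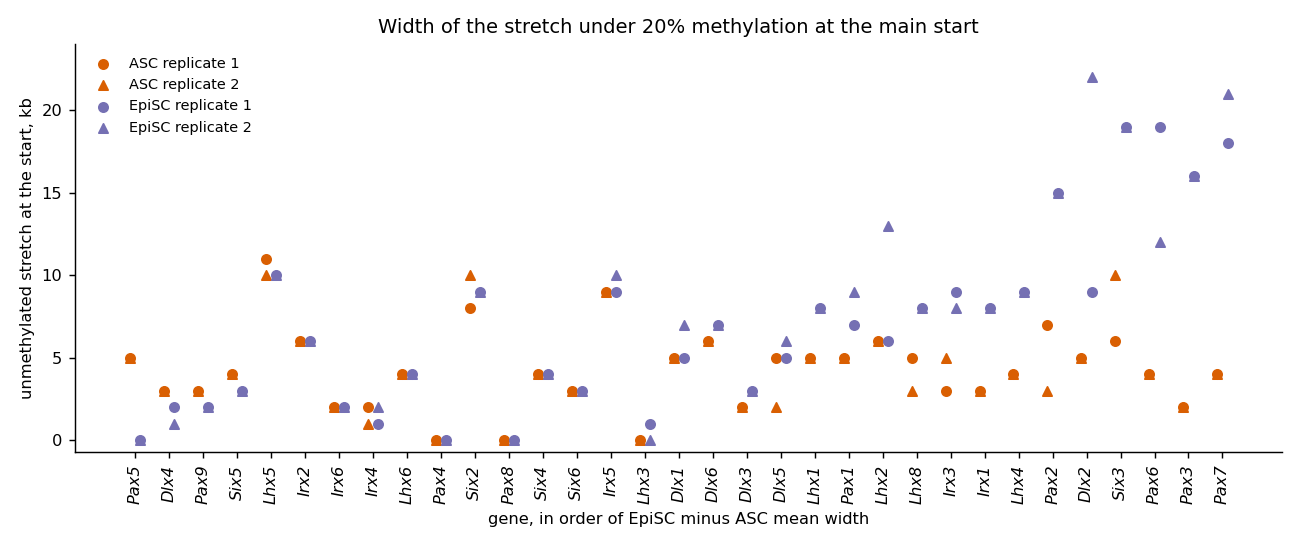
Width in kb of the stretch under 20% methylated around the main start, for each of the 33 genes (horizontal axis, ordered by the difference of the means), with a point for each ASC and EpiSC library. Pax7, Pax3, Pax6, Six3, Dlx2 and Pax2 at the right end have wider stretches in EpiSCs, and Pax5 at the left end has a narrower one.

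The widest gains were at Pax7, Pax3, Pax6, Six3, Dlx2 and Pax2. The stretch of Pax7 was 4 kb in both ASC libraries and 18 and 21 kb in EpiSCs, with 21 and 17 kb in ESCs. Pax3 had 2 kb in both ASC libraries and 16 kb in both EpiSC libraries, but its ESC libraries disagreed, at 17 and 2 kb. Pax6 had 4 kb in both ASC libraries and 19 and 12 kb in EpiSCs, Six3 had 6 and 10 kb against 19 kb in both, and Pax2 had 7 and 3 kb against 15 kb in both. At Dlx2 the EpiSC libraries spread from 9 to 22 kb, against 5 kb in both ASC libraries. Smaller gains were seen at Irx1 (3 kb in both ASC libraries, 8 kb in both EpiSC libraries), Lhx4 (4 against 9 kb), Lhx1 (5 against 8 kb), Irx3, Lhx8 and Pax1. The other 2 were Dlx3 and Dlx6, with a gain of 1 kb on average. By family, wider stretches were found at 5 of 9 Pax genes, 3 of 6 Dlx genes, 3 of 7 Lhx genes, 2 of 6 Irx genes and 1 of 5 among Six2 to Six6. The 4 narrower ones were Pax5, with 5 kb in both ASC libraries and no window under the limit in EpiSCs, and Dlx4, Pax9 and Six5. The last 2 each differed by 1 kb on average.

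Tiles of 2 kb over the genes and 10 kb on each side gave the finest view. They numbered 728, of which 609 passed the minimum: 51 at promoters, 336 in gene bodies, 104 upstream and 118 downstream. The median tile was at 56.3% and 55.0% in ASCs, 13.9% and 14.0% in ESCs, with 79.6% and 80.7% in EpiSCs. All 445422 tiles had medians of 68.8% and 69.0%, 19.4% and 19.7%, and 92.1% in both EpiSC libraries. In ASCs against ESCs 422 tiles were higher and none was lower, where 91.1% of all tiles were higher. In EpiSCs against ESCs 416 were higher, where 96.5% of all were. In ASCs against EpiSCs 204 of 609 (33.5%) were lower, where 53.5% of all tiles were, and 21 (3.45%) were higher, where 0.1% of all were. Of the 446 tiles higher in ASCs in the whole genome, 21 (4.71%) lay at these genes.

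**Figure D4:**
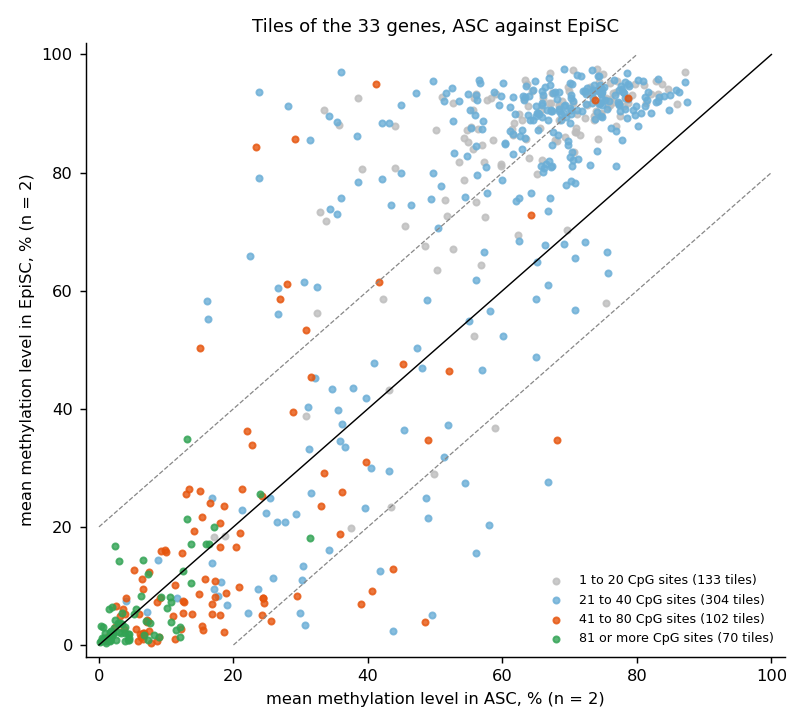
Methylation in percent of each tested tile of the 33 genes, with the ASC mean on the horizontal axis, the EpiSC mean on the vertical axis, colours for CpG density and dashed lines at 20 points from the diagonal. The 204 tiles lower in ASCs lie above the upper dashed line and the 21 higher in ASCs lie below the lower one, and most of the 70 tiles with 81 or more CpG sites sit at the lower left, although 1 of them is among the 204 and single libraries reach 37.4%.

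The 21 tiles higher in ASCs belonged to 12 genes. In all 21 both ASC libraries exceeded both EpiSC libraries, which selection by the difference in these libraries makes likely. Their medians were 47.4% and 45.5% in ASCs, 14.6% and 16.2% in ESCs, with 11.9% and 13.2% in EpiSCs. In 13 of them the EpiSC mean was under the ESC mean. In all, 15 lay within 10 kb of the start, as did 285 of the 609 tested tiles. By place, 10 were in gene bodies, 8 upstream, 2 downstream and 1 at a promoter. By family, higher and lower tiles numbered 14 and 118 of 308 at Pax genes, 1 and 20 of 53 at Six2 to Six6, and 4 and 16 of 59 at Dlx genes. They numbered 1 and 15 of 64 at Irx genes and 1 and 35 of 125 at Lhx genes. Of the 21, between 18 and 21 were called again when any library was left out.

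The tile with the largest difference was at chr1:78192001-78194000, 3.84 kb after the start of Pax3 and overlapping an exon, with 62 CpG sites. It was at 51.3% and 45.8% in ASCs, 14.6% and 20.5% in ESCs, with 4.87% and 2.87% in EpiSCs, a difference of 44.7 points (adjusted p = 3.27e-29). The tile at chr1:78198001-78200000, upstream of Pax3 and the source of the Pax3 sequence above, was at 51.9% and 47.3%, 17.9% and 23.2%, and 7.32% and 2.78% in the same order (44.5 points, adjusted p = 2.1e-17). At both Pax3 tiles EpiSCs were the lowest group. The Pax7 tile at chr4:139818001-139820000, 14.5 kb after the start in an intron, was at 47.4% and 40% in ASCs, 9.88% and 8% in ESCs, with 2.61% and 2.13% in EpiSCs (41.3 points, adjusted p = 3.46e-13). Next came a tile upstream of Dlx4 at chr11:95148001-95150000 in an intron of the antisense gene Dlx4os. It was at 59.9% and 52.4% in ASCs, 25% and 17.05% in ESCs, with 11.9% and 19.05% in EpiSCs (40.6 points, adjusted p = 8.4e-17), so ESCs and EpiSCs overlapped. The fifth was at chr2:105684001-105686000, 16.1 kb after the start of Pax6 and overlapping an exon. It was at 72.4% and 61.2% in ASCs, 22.5% and 36.7% in ESCs, with 30.6% and 24.7% in EpiSCs (39.1 points, adjusted p = 5.95e-10).

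The 204 tiles lower in ASCs were spread over 28 genes, 11 of which also held a higher tile. The largest differences were at Pax5, Six4 and Six5. The Pax5 intron tile at chr4:44554001-44556000, the source of the Pax5 sequence above, lies 155 kb after the start. It was at 19.2% and 28.4% in ASCs, 7.64% and 4.55% in ESCs, with 92.9% and 94.5% in EpiSCs (-69.9 points, adjusted p = 6.14e-29). A second intron tile of Pax5, chr4:44542001-44544000, was at 31.4% and 35.4% in ASCs, 19.6% and 11.7% in ESCs, with 88.1% and 93.0% in EpiSCs (-57.1 points, adjusted p = 5.57e-18). In both, ASCs stayed nearer to ESCs than to EpiSCs.

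Six4 and Six5 supplied the other 3 of the 5 largest. At chr12:73104001-73106000, overlapping an exon of Six4, the levels were 21.9% and 34.3% in ASCs, 5.63% and 13.8% in ESCs, with 89.7% and 93.0% in EpiSCs (-63.2 points, adjusted p = 3.28e-19). Downstream of Six4, at chr12:73096001-73098000, they were 39.1% and 32.7%, 8.22% and 9.64%, and 96.7% and 97.5% (-61.2 points, adjusted p = 2.71e-26). The tile at chr7:19086001-19088000 lies upstream of Six5, a lens and muscle factor, over exons of its neighbours Dmpk and Mir3100, and holds 61 CpG sites. It was at 22.8% and 23.9% in ASCs, 10.9% and 10.5% in ESCs, with 82.3% and 86.5% in EpiSCs (-61 points, adjusted p = 2.45e-43). At Six4 9 of 11 tested tiles were lower in ASCs and none was higher, and at Six5 8 of 10 were lower. At Pax5 44 of 96 were lower and 1 was higher, and Pax6 had 4 lower and 3 higher of 22. Over all tiles 53.5% were lower and 0.1% were higher. Pax1, Dlx5, Six6 and Irx2 had no tile called in either direction.

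**Figure D5:**
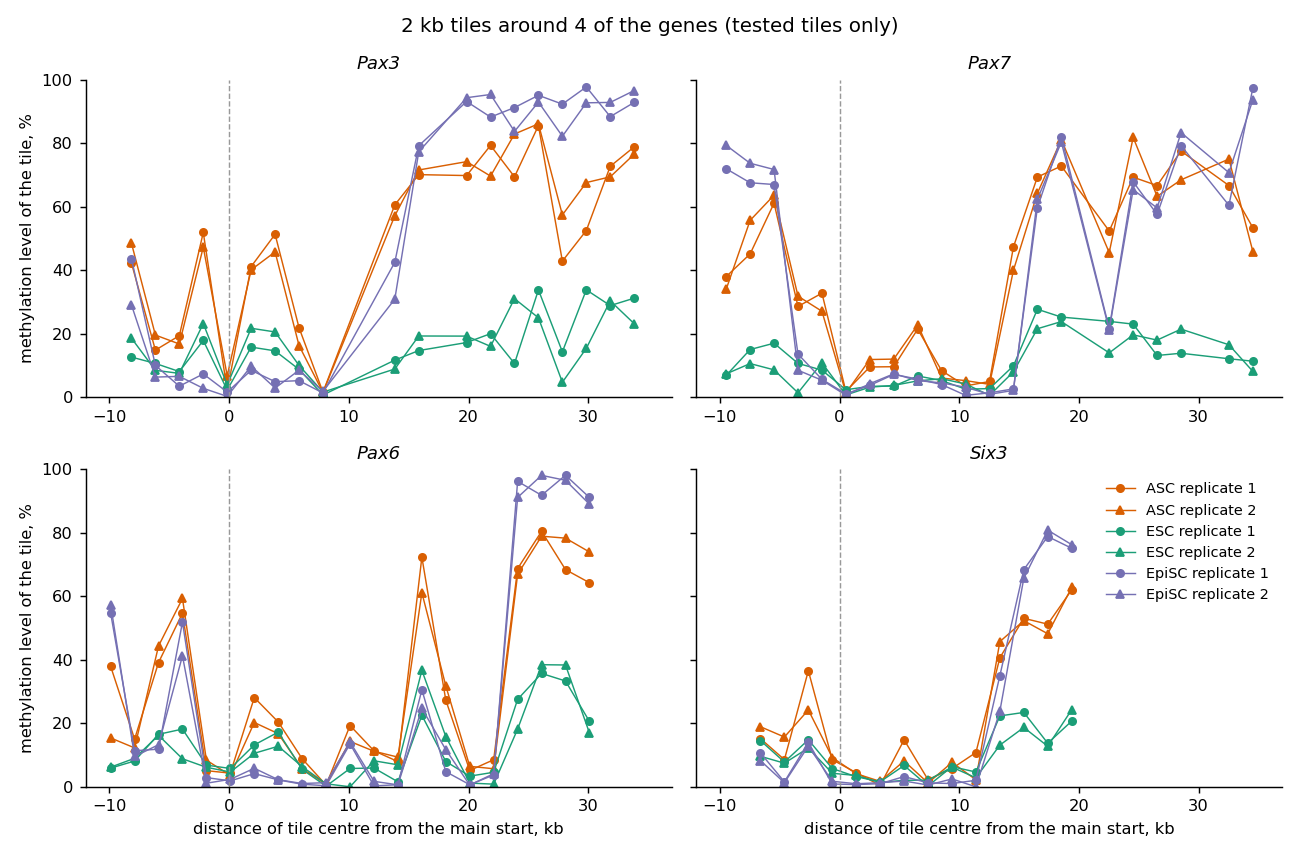
Methylation in percent (vertical axis) of tested 2 kb tiles at Pax3, Pax7, Pax6 and Six3 by distance of the tile from the start in kb (horizontal axis), with a line for each of the 6 libraries. Near the start of Pax3 the ASC lines reach 40% to 52% while the EpiSC lines stay under 10%, and the EpiSC lines climb above the ESC lines farther into Pax3, Pax7 and Pax6, and at Six3 past the end of its main transcript.

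The largest gains of EpiSCs over ESCs fell on some of the same loci. The first were the downstream tile of Six4 above (88.2 points, adjusted p = 6.71e-40) and the intron tile of Pax5 above (87.6 points, adjusted p = 2.64e-40). The others were in Pax7, downstream of Lhx5, and in another part of Pax5. The Pax7 intron tile at chr4:139798001-139800000 was at 53.4% and 45.9% in ASCs, 11.3% and 8.11% in ESCs, with 97.4% and 93.7% in EpiSCs (85.8 points, adjusted p = 3.43e-35). The tile at chr5:120448001-120450000, downstream of Lhx5, a forebrain factor, was at 54.9% and 68.2%, 3.37% and 11.01%, and 90% and 95.6% (85.6 points, adjusted p = 6.88e-31). The Pax5 tile at chr4:44690001-44692000, overlapping an exon, was at 60.7% and 50.6%, 7.79% and 4.76%, and 89.3% and 92.0% (84.4 points, adjusted p = 1.02e-27). No tile of the 609 was called lower in EpiSCs than in ESCs by 20 points, where 0.000898% of all tiles were. At an unadjusted p under 0.05 there were 524 of the 609 in either direction. Of all tiles, 99.4% were higher and 0.0579% were lower in EpiSCs even after adjustment, with no minimum difference. Limma on M values and Fisher's exact test, held to the same 20 points, also called none of the 609 lower. The largest drop at an adjusted p under 0.05 was 15.5 points, so that result was largely set by the minimum.

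With no minimum difference, 533 tiles were higher (97.4% of all) and 2 were lower (0.0707% of all) in ASCs than in ESCs. Against EpiSCs 98 were higher in ASCs (16.1%, against 0.374% of all) and 370 were lower (60.8%, against 90.4%). In EpiSCs 490 were higher than in ESCs (99.4% of all), but 34 of 609 tiles (5.58%) were lower in EpiSCs than in ESCs, where 0.0579% of all tiles were. These 34 were 13.2% of the 258 such tiles in the genome. This rule was added after the values had been seen. The 34 lay in 13 genes: 7 at Pax6, 4 each at Pax3, Six3 and Lhx2, 3 at Dlx2, 2 each at Dlx5, Irx3, Pax2 and Six2, and 1 each at Lhx1, Lhx4, Lhx8 and Pax7. EpiSCs were lower by 1.07 to 15.5 points, with a median of 5.32. In 33 of 34 tiles both EpiSC libraries were under both ESC libraries, which selection by this comparison makes likely. The medians were 8.54% and 9.65% in ASCs, 6.85% and 6.63% in ESCs, with 1.97% and 1.84% in EpiSCs. The tiles were CpG-dense, with a median of 77 sites, against 28 over the 609. Of the 34, 31 lay within 10 kb of the start, as did 285 of the 609. Of the 34, 31 were also higher in ASCs than in EpiSCs by the same rule, a comparison that shares the EpiSC libraries.

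The largest of these differences were at the upstream Pax3 tile above, at -15.5 points (adjusted p = 1.57e-05), and at chr19:44748001-44750000 upstream of Pax2. The Pax2 tile was at 34.6% and 26.6% in ASCs, 17.1% and 19.3% in ESCs, with 5.84% and 1.08% in EpiSCs (-14.8 points, adjusted p = 9.94e-08). The Pax3 tile overlapping an exon followed, at -13.7 points (adjusted p = 3.74e-09). The tile at chr2:105672001-105674000, overlapping an exon of Pax6, was at 20.4% and 16.7% in ASCs, 17.2% and 12.8% in ESCs, with 2.17% and 2.23% in EpiSCs (-12.8 points, adjusted p = 1.1e-09). At both the Pax2 and the Pax6 tile the EpiSC libraries lay apart from the other 4.

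The 21 tiles higher in ASCs held a median of 37 CpG sites and the 204 lower ones a median of 24. The median was 28 over the 609 tested tiles and 23 over all tiles. The sparsest tiles were close to others of their density: the 133 tested tiles with 1 to 20 CpG sites had EpiSC medians of 88.9% and 89.4%, against 92% in both libraries over all such tiles, and 66 (49.6%) were called lower in ASCs than in EpiSCs, against 52.8%. In the same class 3 were called higher, against 0.0412%. The 304 with 21 to 40 sites had EpiSC medians of 88.2% and 87.7%, against 92.5% and 92.4%. They were called higher in ASCs than in EpiSCs 11 times (0.107% of all such tiles) and lower 130 times (55.4%). The 102 with 41 to 80 sites were called 7 times each way (0.372% and 53.5%). With no minimum difference the numbers in the latter class were 45 higher (44.1%, against 2.04% of all 30884 tiles of that density) and 23 lower (22.5%, against 86%). The medians of these 102 tiles were 14.98% and 15.7% in ASCs, 7.18% and 6.37% in ESCs, with 9.26% and 8.73% in EpiSCs. All tiles of that density were at 42.6% and 42.9% in ASCs, 11.9% and 12.2% in ESCs, with 90% in both EpiSC libraries. In this density class the tiles of the 5 families were thus far from others in EpiSCs, and their medians were also lower in ASCs and ESCs. Among the 70 with 81 or more sites none was called higher in ASCs than in EpiSCs by 20 points (0.0335% of all such tiles) and 1 was called lower (13.3% of all). With no minimum difference 21 were higher (30%, against 2.91% of all) and 11 were lower, where 65.5% of all were. The density classes were set with earlier values known, and the shares are a description.

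The relatives and partners of these families, a list of 22 genes, included 17 with a tested promoter. Those under the minimum were Eya1, Dach1, Ldb2, Lmo1 and Msx2. Of the 17, 2 were higher in ASCs than in ESCs (17.2% of all promoters were). In ASCs against EpiSCs 1 was higher (0.153% of all) and 4 were lower (24.4% of all). In EpiSCs against ESCs 5 were higher (37% of all) and 1 was lower (0.00694% of all). The 4 lower in ASCs were Dach2 (-39.5 points), a partner of Eya and Pax proteins, the LIM homeodomain gene Isl1 (-51.9 points), and the LIM-only genes Lmo2 (-48.0 points) and Lmo3 (-47.7 points). Dach2 lies on the X chromosome and was at 41.8% and 37.2% in EpiSCs. The study describes an inactive X in female EpiSCs and none in female ASCs, and the part of the X in this difference was not tested. All of the 33 genes lie on autosomes, while the shares over all promoters include the X. The single promoter higher in ASCs was that of Lhx9, a gonad and limb factor outside the 33. It was at 49.3% and 31.7% in ASCs, 24.1% and 48.8% in ESCs, with 2% and 2.33% in EpiSCs, so ASCs and ESCs overlapped and EpiSCs lay apart. It was also the 1 promoter of 14414 called lower in EpiSCs than in ESCs (-34.3 points), a point made after its values had been seen.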

How the data were processed

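CpG methylation was examined in 6 PBAT whole-genome bisulfite libraries of ASCs, ESCs and EpiSCs (2 each). According to the methods of the study, the authors trimmed reads with Trim Galore, aligned them to GRCm38 with Bismark 0.16.3, removed duplicates and used MethPipe (version not given in the sources used here) to merge the strands of each CpG. The deposited tables give the methylation fraction of each CpG and its coverage, a raw count of reads. Lambda control reads were not analysed here. Fraction times coverage lay within 0.000115 of a whole number, so methylated counts were recovered. Between 0.136% and 0.164% of reads, outside chromosomes 1 to 19 and X, were left out.

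Levels were summed over promoters, gene bodies, flanks of 10 kb and 2 kb tiles, with 1 main transcript per gene from GENCODE M21. A quasi-binomial model was fitted to all 6 libraries, with the dispersion moderated by limma 3.58.1 (R 4.3.3), F tests and Benjamini-Hochberg adjustment over all regions of a class. The spread shared by a class weighed in with 7.33 prior degrees of freedom at promoters, 9.44 at gene bodies and 144.7 at tiles. At tiles the spread between replicates of the single tile thus counted little. Very small p-values there rest mostly on the number of observations. Adjusted p-values are two-sided. The model was also run on simulated counts for promoters, while gene bodies and tiles were not simulated. Tables were handled in Python 3.11.15 with scipy 1.17.1. The stretch needed 10 observations per window and was followed for 50 kb on each side.

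The 95% Wilson interval around 50% runs from 35.2 to 64.8% with 40 observations and from 40.4 to 59.6% with 100. Intervals cover counting error only, and observations of 1 read are not independent. Replicate levels over tiles correlated with r = 0.924 in ASCs, 0.763 in ESCs and 0.958 in EpiSCs, across tiles, which are not independent replicates.

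The genes, lists and named-gene rule were chosen with earlier results of these data known. Named were genes called at promoters or bodies, up to 10 of each kind, those under the minimum, each family's highest and lowest promoter in EpiSCs, and the 5 largest tiles per direction. Sequences were read from the GRCm38 genome by coordinates. Alternatives are given in the closing section.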

Additional observations from a re-analysis of the deposited data

How the results depend on the processing

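Promoter counts were small and moved with the rules. Calls in ASCs against ESCs, 1 in the report, were 3 with a minimum of 20 observations, 7 with no minimum difference, 0 with 40 points, 2 from the most upstream start and 1 to 2 with a library left out. In ASCs against EpiSCs, 0 in the report, they were 1, 5 and 1 with 20 observations, no minimum difference and the most upstream start. In EpiSCs against ESCs, also 0, they were 2, 13 and 1 under these settings, 2 with 500 bp to either side of the start and 0 to 2 with a library left out. Body calls of 9, 1 and 12 became 27, 20 and 26 with no minimum difference, and 3, 0 and 6 with 40 points. Tile calls of 422, 225 and 416 became 146, 81 and 147 with a minimum of 100 observations, where fewer tiles were tested. In ASCs against EpiSCs they became 468 with no minimum difference and 33 with 40 points. The 21 tiles higher in ASCs became 11, 98 and 4 in these 3 settings, and the 204 lower ones became 70, 370 and 29. Other moved counts were 9 wider stretches at 10% and 2 narrower ones at 30%, and the body of Six3 turned from -2.15 to 0.23 points over the whole annotated span. Where no construction shows it, the cause was not tested. The regions tested also change with the minimum of observations, the window and a library left out. Shares over all regions are given above only for the main rules and for calls with no minimum difference. The other counts of calls stand without a background.

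A replicate block left the counts at 1, 0 and 0 promoters, 9, 1 and 12 bodies, and 422, 225 and 416 tiles. The same minimum was applied to the same differences, so this agreement was largely set by it, and the counts of 0 could not rise. With no minimum difference, promoters higher and lower in ASCs than in ESCs went from 6 and 1 to 3 and 0 with the block. In ASCs against EpiSCs they went from 4 and 1 to 2 and 1, and in EpiSCs against ESCs from 8 and 5 to 4 and 3. No pairing by replicate number was seen, as deviations of equal numbers correlated across tiles with r between -0.0062 and 0.0023. Counting error at single tiles can hide a shared effect, so these values do not exclude a pairing. Thinning to equal total reads gave 21 tiles higher and 196 lower in ASCs, of 588 tested, and 33 lower in EpiSCs than in ESCs with no minimum difference, of which 32 were among the 34 above. Of the 34, between 26 and 34 were called again with a library left out.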
